A study of Mus musculus with 6 samples.

Results

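The genes described here are 36 genes of glycolysis and of the response to low oxygen, picked by name from a table that lists 34745 genes. They comprise 2 glucose transporters, 2 hexokinases, 7 genes of upper glycolysis, 6 of lower glycolysis, 4 of lactate formation and export, 3 regulators of the flow through the pathway, 2 subunits of the hypoxia-inducible factor (HIF), 2 of its prolyl hydroxylases and 8 further hypoxia-responsive genes. All 36 were listed, and 33 averaged 1 FPKM or more across the 6 libraries and were tested. FPKM relates the sequenced fragments of a gene to its length and to the size of the library, so that levels can be compared between genes as well as between libraries. Genes with near-identical copies, described below, are less safe to compare, because their fragments can be assigned to the copies. The 3 members that were not tested had means of 0.233 FPKM (Car9), 0.857 FPKM (Aldoc) and 0.879 FPKM (Ankrd37), and the lowest means among the tested members were 1.36 FPKM (Slc2a3), 1.39 FPKM (Epas1) and 1.86 FPKM (Pfkfb4).

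Lung mesenchymal stromal cells (LMSCs) were grown from MMTV-PyMT mice, in which the mouse mammary tumor virus promoter drives the polyoma middle T antigen in mammary epithelium, so that mammary tumors arise and later seed the lung. The cells came from 3 stages of the disease, with 2 libraries each: the adenoma stage (A-LMSC, mice of 6 to 7 weeks), the pre-metastatic stage (PM-LMSC, 9 to 10 weeks) and the metastatic stage (M-LMSC, 13 to 14 weeks), these ages being those of the sample labels. The study's methods give older ages for the adenoma and pre-metastatic stages. RNA was sequenced to ask how resident stromal cells of the lung change while the niche for metastasis forms.

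Every library carries the same transgene, on the FVB/N background, and there is no library from tumor-free mice among those analysed. The cells were not taken straight from the lung: adherent cells depleted of CD45+ leukocytes were carried to passage 3 in DMEM with serum, so the values describe cultured cells in medium and not cells at the oxygen tension of the tissue. The study counts its replicates of a stage as mice; the labels number the libraries without naming an animal. In cultures that can hold more than 1 cell type, fewer cells of a type and less RNA per cell cannot be told apart.

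Glycolysis splits glucose into pyruvate in the cytoplasm, and cells that send pyruvate on to lactate can run it without oxygen. HIF is a transcription factor whose alpha subunits are hydroxylated and destroyed when oxygen is plentiful; when oxygen falls they persist, pair with Arnt and bind the core motif ACGTG near genes that include most glycolytic enzymes, the glucose transporter Slc2a1, the lactate exporter Slc16a3 and the hydroxylase Egln3 itself. Cultured fibroblasts and other stromal cells commonly make much lactate.

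The HIF core motif was therefore looked for in the promoters of the members, as letters only. ACGTG or its reverse complement CACGT stood in 22 of the 32 members with a RefSeq promoter window (68.8%), which runs from 250 bases before to 50 bases after a start of the gene on GRCm38.p6. The share was 21.8% of the 27025 genes with a window and 30.4% of the 7662 tested genes that have one. Because the members were picked by name for glycolysis and hypoxia response, known HIF targets are among them and a larger share is built into the list. Whether HIF acts on the members in these cells was not tested. A gene with several annotated starts has several windows (2 to 4 in 9 members) and was counted if any of them held the motif. With the most upstream window of each gene alone, a choice made after seeing the data, the counts were 19 of 32 members (59.4%), 19.6% of all genes and 27.0% of the tested genes. Ndrg1, Bnip3l, Epas1 and Slc2a3 were not matched to a window. Some members whose libraries separated by stage are shown, so that the motif can be seen in its place; they were chosen after their values were seen. Each line runs 5′ to 3′ on the strand of the gene, from RefSeq (GRCm38.p6), and starts 250 bases before the RefSeq start of the gene. It stops where an exon annotated in GENCODE M21 begins, or at the end of a match that crosses into it. The Egln3 line stops before that, at the RefSeq start. Capitals mark the matches, and in Bnip3 the matches on the 2 strands overlap in the palindrome CACGTG.
Slc2a1: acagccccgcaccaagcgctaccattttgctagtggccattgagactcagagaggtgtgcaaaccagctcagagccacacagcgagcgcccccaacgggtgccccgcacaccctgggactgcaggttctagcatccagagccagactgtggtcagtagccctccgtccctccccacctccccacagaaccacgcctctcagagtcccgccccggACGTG
Slc16a3: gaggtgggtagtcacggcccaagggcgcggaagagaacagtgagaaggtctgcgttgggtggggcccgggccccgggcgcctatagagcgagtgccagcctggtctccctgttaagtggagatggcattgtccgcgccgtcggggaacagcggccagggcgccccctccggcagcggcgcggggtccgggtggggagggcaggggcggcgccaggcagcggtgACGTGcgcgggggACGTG
Egln3: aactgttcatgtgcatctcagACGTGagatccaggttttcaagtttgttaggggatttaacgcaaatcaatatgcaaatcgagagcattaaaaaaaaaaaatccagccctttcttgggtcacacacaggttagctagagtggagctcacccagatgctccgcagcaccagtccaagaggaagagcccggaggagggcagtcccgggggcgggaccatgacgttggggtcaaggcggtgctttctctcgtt
Bnip3: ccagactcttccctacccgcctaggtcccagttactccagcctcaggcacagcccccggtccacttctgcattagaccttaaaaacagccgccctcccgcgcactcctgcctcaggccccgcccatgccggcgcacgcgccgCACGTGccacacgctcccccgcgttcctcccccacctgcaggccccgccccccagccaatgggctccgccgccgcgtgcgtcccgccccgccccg
The Slc2a1 stretch is chr4:119108495-119108713 (plus strand), with a match 36 bases before the start. The Slc16a3 stretch is chr11:120948817-120949057 (plus strand), mostly inside the first intron of a transcript that starts further upstream, with matches 27 and 14 bases before the start. The Egln3 stretch is chr12:54203875-54204124 (minus strand), with a match 229 bases before the start. The Bnip3 stretch is chr7:138909520-138909756 (minus strand), with matches 108 and 107 bases before the start. The motif did not sort the members by stage: it was in 10 of the 16 members with a window that were highest in A-LMSCs (62.5%) and in 9 of the 13 other tested members with a window (69.2%).

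The libraries were alike in summed FPKM and correlated closely, while markers of several cell types differed between the stages. Their FPKM summed to between 258249 and 271408, the depth estimated from the spacing of low values was 15000000 to 21100000 fragments, and the deepest 2 libraries were those of A-LMSCs. Libraries of the same stage correlated at 0.977 to 0.992 over the 10279 genes tested, and libraries of different stages at 0.966 to 0.987. All 11 markers of mesenchymal stromal cells were detected, with summed levels of 2086 to 3231 FPKM, among them Col1a1, Vim and Pdgfrb. The 5 muscle markers summed to 6400 to 6497 FPKM in A-LMSCs, 5929 to 6141 in PM-LMSCs and at most 5436 in M-LMSCs. Nearly all of that was Acta2 of smooth muscle and myofibroblasts, at 6311 and 6214, then 5568 and 5804, then 5246 and 4986 FPKM, so its stages did not overlap and A-LMSCs were the highest. The muscle markers Des and Myh11 did not share this order. Des was highest in PM-LMSCs, at 311 and 299 FPKM, and at most 225 FPKM in the other libraries. Myh11 overlapped between the stages, at 33.4 to 50.1 FPKM. The 7 leukocyte markers summed to 117 to 124 FPKM in A-LMSCs, 69.0 to 158 in PM-LMSCs and 270 to 381 in M-LMSCs, mostly Lyz2. The macrophage genes Cd68 (5.85 and 6.44 FPKM in A-LMSCs, 9.83 and 12.2 in M-LMSCs), Adgre1 (0.252 and 0.506, then 2.09 and 1.52), Itgam (0.0799 and 0.468, then 2.45 and 1.46) and Csf1r (3.29 and 3.51, then 4.71 and 4.66) were also higher in both M-LMSC libraries, while the pan-leukocyte gene Ptprc was at 0.0987 FPKM or less in every library. The 5 epithelial markers summed to 3.46 to 5.58, 10.2 to 18.2 and 10.1 to 22.9 FPKM, with Epcam at 0 in all libraries but those of M-LMSCs. The 3 mesothelial markers summed to 26.2 to 41.9, 75.0 to 119 and 50.6 to 151 FPKM, the 4 endothelial markers to at most 2.60 FPKM, and the 2 erythroid markers to at most 0.106 FPKM with Hbb-bs at 0 throughout. The part of these cells in the differences below was not tested.

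Levels ran from 0.0217 FPKM (Aldoc in a library of M-LMSCs) to 1756 FPKM (Pkm in a library of A-LMSCs). Among the members, the highest level was that of Pkm, which makes pyruvate, at 1231 to 1756 FPKM, followed by Ldha, Pgam1, Pgk1, Aldoa and Tpi1. Of the transporters and isozymes, Slc2a1, Hk2 over Hk1, Pfkl, Aldoa, Ldha and Slc16a3 were the more abundant forms, and Hif1a was far above Epas1. The 17 glycolytic enzymes and lactate dehydrogenases summed to 4273 and 4479 FPKM in A-LMSCs, 3546 and 4011 in PM-LMSCs and 3212 and 3632 in M-LMSCs. That sum was 1.60% and 1.68% of all FPKM in A-LMSCs, 1.33% and 1.48% in PM-LMSCs and 1.24% and 1.37% in M-LMSCs, with both A-LMSC libraries above the other 4. The members are spread over many chromosomes, and Slc2a3, Hk2, Tpi1, Gapdh, Eno2 and Ldhb lie on chromosome 6.

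**Figure D1:**
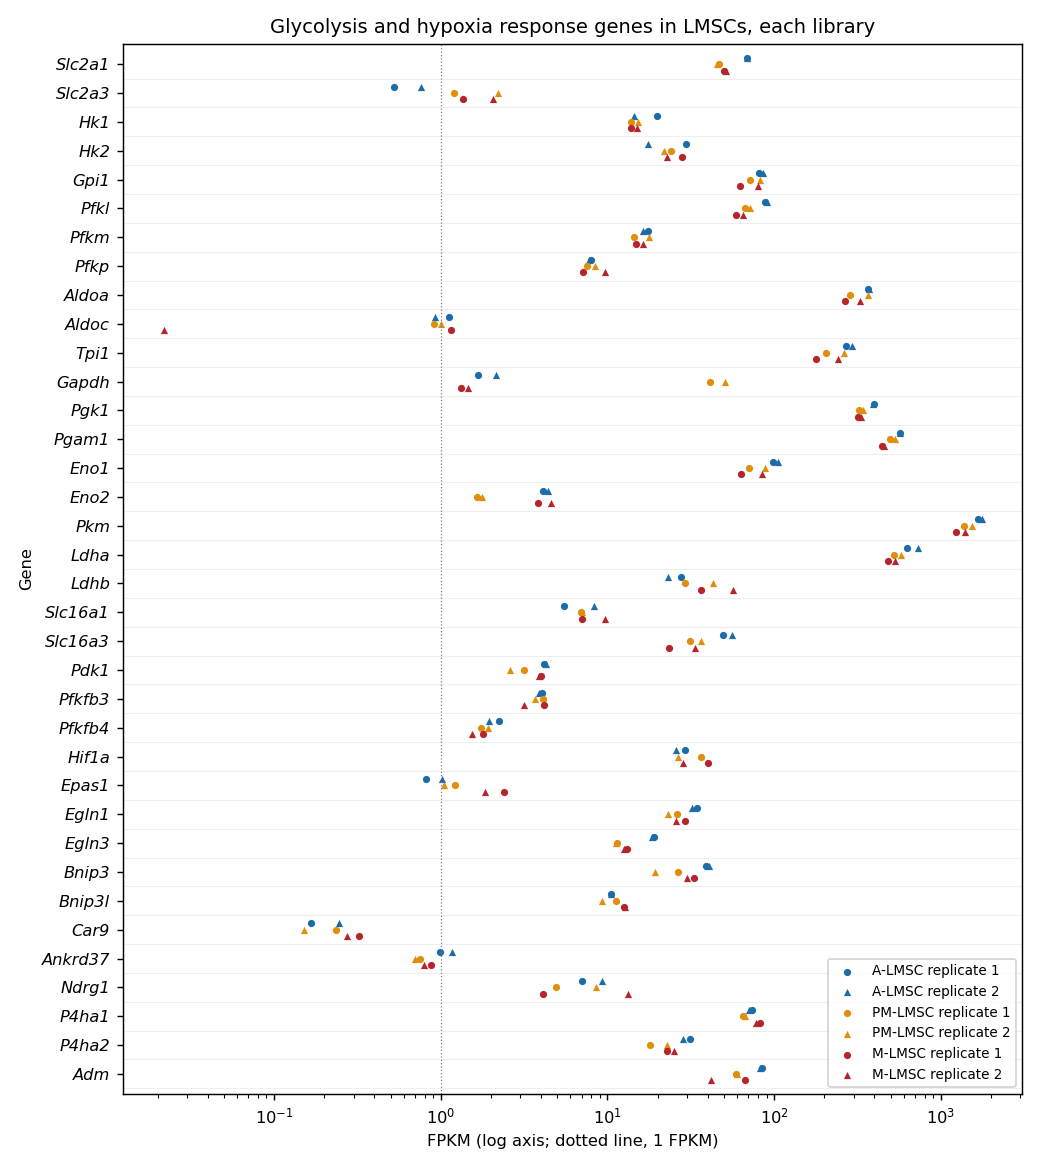
FPKM on a log axis (horizontal) of each of the 36 genes (vertical), with A-LMSC libraries in blue, PM-LMSC in orange and M-LMSC in red, and circles and triangles for replicates 1 and 2. Pkm is the highest, between 1231 and 1756 FPKM, and Gapdh is the gene whose PM-LMSC libraries, at 41.3 and 50.8 FPKM, stand far from the other 4.

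Between A-LMSCs and PM-LMSCs, Gapdh rose and no other member passed the test, while most members were somewhat lower in PM-LMSCs. Gapdh was called higher (1 of 33), where 0.0292% of all genes tested were called higher, and 0 members were called lower, where 0.00973% of all genes were (limma on log2(FPKM + 1), Benjamini-Hochberg adjusted p under 0.05). At an unadjusted p under 0.05, 2 members were higher and 9 were lower, against 3.92% and 2.61% of all genes. Both PM-LMSC libraries lay below both A-LMSC libraries in 18 members, 54.5% of those tested, where 19.7% of all genes did so, and above them in 4, where 19.6% did. The median log2 fold change was −0.21 over the 33 members, 25 of them lower, and 0.01 over all genes tested; with each library centred on its median or quantile normalized it was −0.24 and −0.19. With the replicate number as a block, Eno2 was called lower as well (adjusted p = 0.0369), where 0.0292% of all genes were lower and 0.263% higher. The summed epithelial and mesothelial markers were also higher in both PM-LMSC libraries than in A-LMSCs, and the summed muscle markers lower, as given above.

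Between A-LMSCs and M-LMSCs no member passed the test in either direction, where 0.0389% of all genes were called higher and 0.0292% lower. At an unadjusted p under 0.05, 3 members were higher (Epas1, Ldhb and Slc2a3) and 10 were lower, against 7.68% and 6.96% of all genes. Both M-LMSC libraries lay below both A-LMSC libraries in 19 members (57.6%; 24.4% of all genes) and above them in 5 (15.2%; 27.1% of all genes). The median log2 fold change was −0.23 over the members, 24 of 33 lower, and 0.03 over all genes. With the replicate block the count was 5: Epas1 and Slc2a3 were called higher, where 2.28% of all genes were, and Slc16a3, Egln3 and Pfkl lower, where 1.64% were; with GC content and gene length corrected for beside the block, Slc16a3 and Egln3 were still called and the other 3 were not, where 1.67% of all genes were higher and 1.31% lower. The summed leukocyte, epithelial and mesothelial markers were also higher in both M-LMSC libraries than in A-LMSCs, and the summed muscle markers lower, as given above.

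Between PM-LMSCs and M-LMSCs, Gapdh fell back and was the only member called, where 0.00973% of all genes were called lower and 0.0195% higher. At an unadjusted p under 0.05, 5 members were higher in M-LMSCs (Epas1, Pdk1, Eno2, P4ha1 and Bnip3; 4.48% of all genes) and Gapdh was lower (4.46% of all genes). In 9 members both M-LMSC libraries exceeded both of PM-LMSCs (27.3%; 17.8% of all genes) and in 3 they were lower (9.09%; 16.7% of all genes). The median log2 fold change was 0.02 over the members and −0.00 over all genes. It was −0.11 over the 14 tested glycolytic enzymes and lactate dehydrogenases other than Gapdh and Eno2, 11 of them lower, but −0.05 with 10 lower when quantile normalized or with the GC and length correction beside the block. It was 0.21 over the 10 tested members that are HIF subunits, prolyl hydroxylases or further hypoxia-responsive genes, of which only Adm was lower. With the replicate block Eno2 was called higher as well (adjusted p = 0.0397), where 0.272% of all genes were higher and 0.146% lower.

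**Figure D2:**
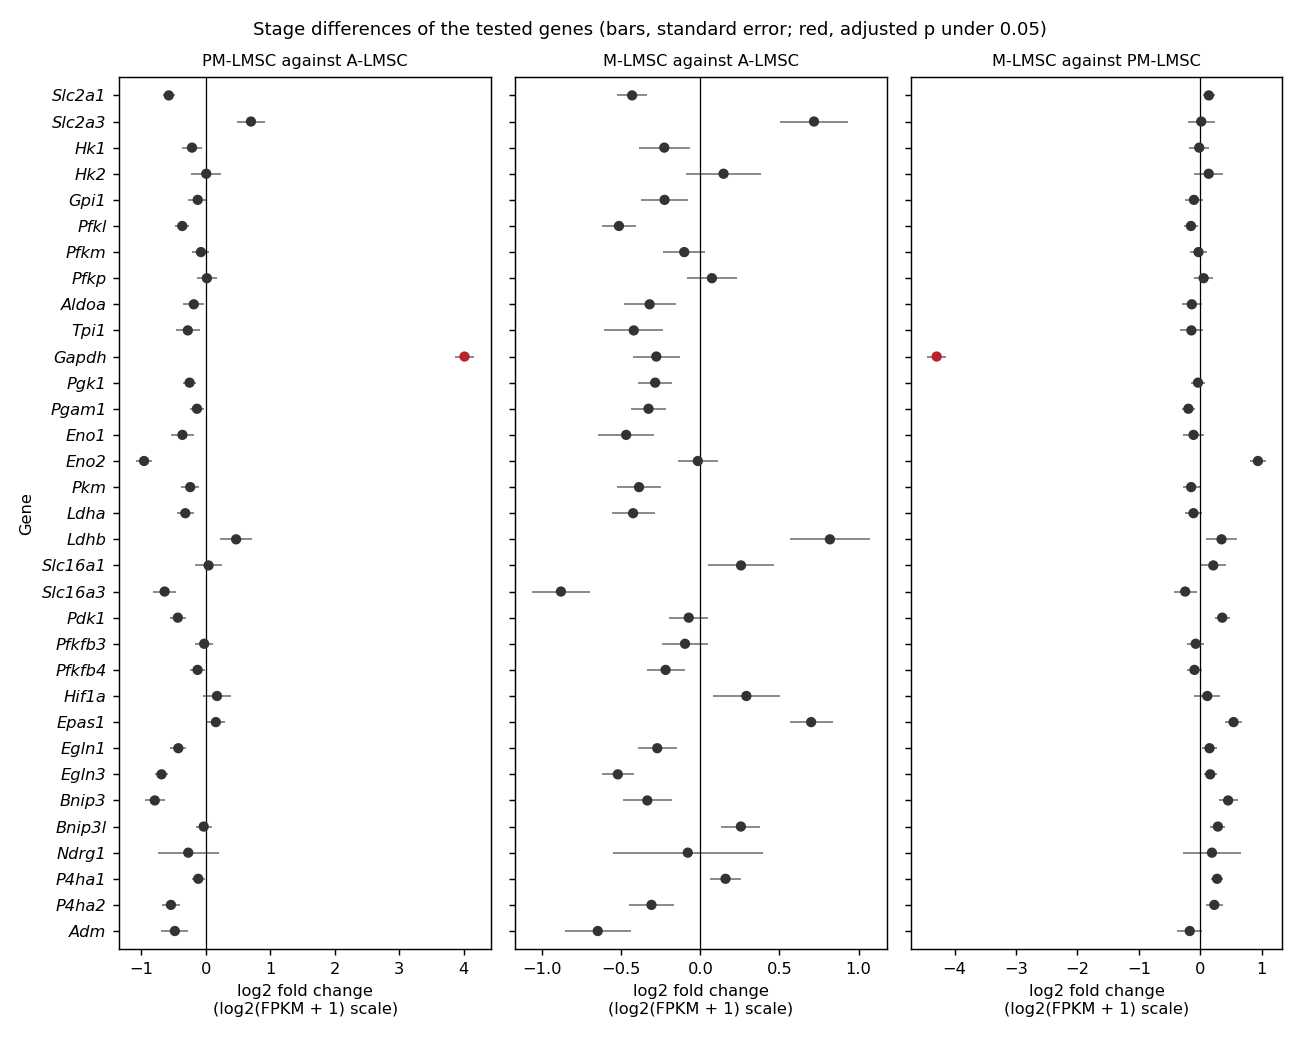
Log2 fold change on the log2(FPKM + 1) scale (horizontal) of the 33 tested genes (vertical) in each of the 3 comparisons, with bars for the standard error and red points for adjusted p under 0.05. Gapdh is the only red point, at 4.01 for PM-LMSC against A-LMSC and −4.29 for M-LMSC against PM-LMSC, and most points of the first 2 panels lie left of 0.

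Set by stage, the commonest ordering was A-LMSC highest. Both A-LMSC libraries were above the other 4 in 16 of the 33 tested members (48.5%), where 10.7% of all genes were. These were Slc2a1, Pfkl, Tpi1, Pgk1, Pgam1, Eno1, Pkm, Ldha, Slc16a3, Pdk1, Pfkfb4, Egln1, Egln3, Bnip3, P4ha2 and Adm, and so include transporters, enzymes and HIF regulators alike; Ankrd37, which was not tested, had the same order. Both A-LMSC libraries were below the other 4 in Slc2a3, Ldhb and Epas1 (9.09%; 10.7% of all genes). Both PM-LMSC libraries were lowest in 7 members (21.2%; 6.05% of all genes) and highest in Gapdh alone (3.03%; 4.26% of all genes), and both M-LMSC libraries were highest in 3 and lowest in 3 (9.09% each; 11.8% and 11.6% of all genes). These counts share the same 6 libraries and describe them; no test was made on them.

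**Figure D3:**
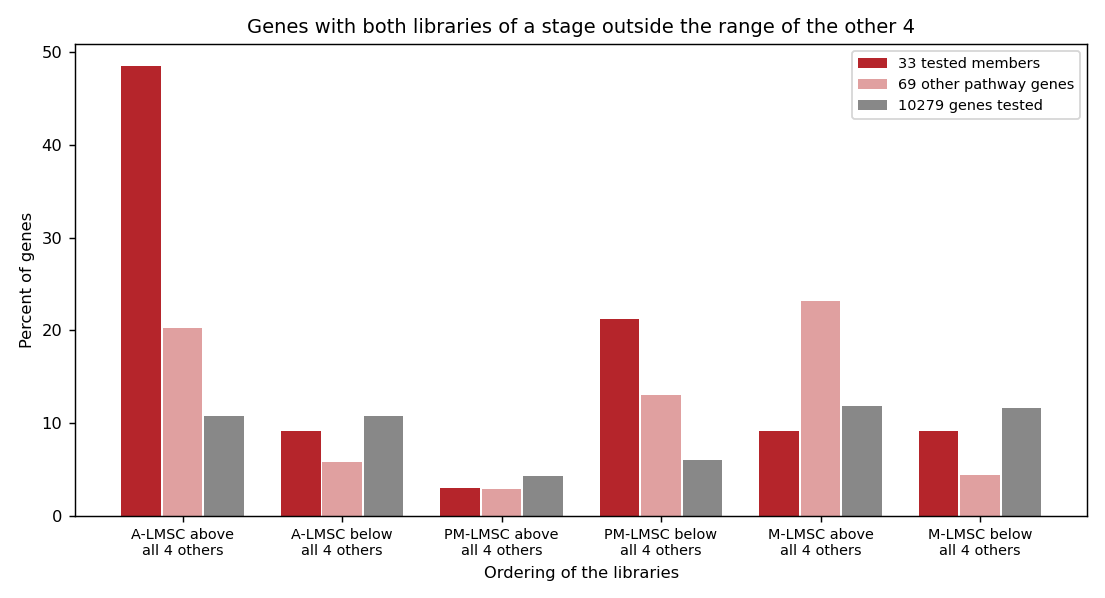
Percent of genes (vertical) in which both libraries of a stage lie above or below all 4 others (horizontal), for the 33 tested members (dark red), 69 other genes of the same pathways (light red) and all 10279 genes tested (grey). A-LMSC highest is the tallest bar of the members, at 48.5% against 20.3% of the other pathway genes and 10.7% of all genes.

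Of the 2 glucose transporters, the basal transporter Slc2a1 (GLUT1) had by far the more RNA. Slc2a1 stood at 68.8 and 69.2 FPKM in A-LMSCs, 46.6 and 45.6 in PM-LMSCs and 50.2 and 51.6 in M-LMSCs. The stages did not overlap, and PM-LMSCs were the lowest. The log2 fold change was −0.57 (SE 0.10) for PM-LMSC against A-LMSC and −0.43 (SE 0.10) for M-LMSC against A-LMSC, with limma adjusted p = 0.26 and 0.133. Slc2a3 (GLUT3), a transporter with a higher affinity for glucose, was at 0.523 and 0.758, then 1.21 and 2.21, then 1.36 and 2.07 FPKM. All 4 later libraries were above both A-LMSC libraries, and PM-LMSCs and M-LMSCs overlapped. Its log2 fold change against A-LMSCs was 0.70 (SE 0.22, limma adjusted p = 0.557) in PM-LMSCs and 0.72 (SE 0.22, adjusted p = 0.224) in M-LMSCs, the former 0.43 without PM-LMSC replicate 2. With the replicate block the M-LMSC difference passed (SE 0.12, adjusted p = 0.0285). Slc2a3 made up 0.754% and 1.08% of the summed FPKM of the 2 transporters in A-LMSCs, 2.53% and 4.62% in PM-LMSCs and 2.64% and 3.85% in M-LMSCs.

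Hexokinase traps glucose in the cell as its phosphate. Hk1 ranged from 13.8 to 19.9 FPKM and Hk2, the inducible form, from 17.6 to 29.4 FPKM, with both extremes of Hk2 in A-LMSCs. In the next steps, Gpi1 (62.7 to 86.0 FPKM) isomerises the sugar and phosphofructokinase commits it to breakdown. Pfkl, the liver-type subunit, was at 87.7 and 90.4, then 66.6 and 71.6, then 59.1 and 65.1 FPKM. The 3 stages did not overlap, with A-LMSCs the highest and M-LMSCs the lowest. Its log2 fold change was −0.36 (SE 0.11, adjusted p = 0.535) in PM-LMSCs and −0.52 (SE 0.11, adjusted p = 0.118) in M-LMSCs against A-LMSCs, and the latter passed with the replicate block (SE 0.10, adjusted p = 0.0385). The muscle-type Pfkm (14.5 to 17.7 FPKM) and platelet-type Pfkp (7.13 to 9.69 FPKM) overlapped between the stages. Pfkl made up 77.5% and 79.0% of phosphofructokinase FPKM in A-LMSCs, 75.2% and 73.3% in PM-LMSCs and 72.8% and 71.3% in M-LMSCs.

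Aldolase and Tpi1 then yield triose phosphates. Aldoa ranged from 265 to 370 FPKM, and its brain-type relative Aldoc was near 1 FPKM but for 0.0217 FPKM in replicate 2 of M-LMSCs. Tpi1 reached 269 and 291 FPKM in A-LMSCs, 204 and 261 in PM-LMSCs and 180 and 242 in M-LMSCs. A-LMSCs were above all others, the later stages overlapped, and its M-LMSC against A-LMSC log2 fold change of −0.42 (SE 0.19) had an adjusted p of 0.358. None of these passed the test.

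In lower glycolysis, Gapdh went against its neighbours in the pathway. Gapdh oxidises glyceraldehyde 3-phosphate, the step at which glycolysis reduces NAD+, and is often used as a reference gene. Its level was 1.68 and 2.13 FPKM in A-LMSCs, 41.3 and 50.8 in PM-LMSCs and 1.32 and 1.45 in M-LMSCs. The PM-LMSC libraries were far above the other 4, and both M-LMSC libraries were the lowest. The PM-LMSC mean was 24.2 times that of A-LMSCs (log2 fold change 4.01, SE 0.15, limma adjusted p = 0.000569) and 33.2 times that of M-LMSCs (M-LMSC against PM-LMSC log2 fold change −4.29, SE 0.15, adjusted p = 0.000183). Among the 10279 genes tested it had the largest rise of PM-LMSC against A-LMSC and the 2nd largest fall of M-LMSC against PM-LMSC. Both calls held under every alternative tried, with each library left out in turn included.

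The enzymes on either side of Gapdh did not share this pattern. Pgk1, which makes ATP from its product, was at 397 and 394, then 325 and 340, then 318 and 330 FPKM. Pgam1 was at 566 and 566, then 499 and 533, then 446 and 456 FPKM, and Pkm at 1669 and 1756, then 1370 and 1536, then 1231 and 1390 FPKM. In all 3 genes both A-LMSC libraries were the highest, and PM-LMSCs lay between A-LMSCs and M-LMSCs in their means. The M-LMSC against A-LMSC log2 fold changes were −0.29 (SE 0.11) for Pgk1, −0.33 (SE 0.11) for Pgam1 and −0.39 (SE 0.14) for Pkm, with limma adjusted p between 0.26 and 0.296. For M-LMSC against PM-LMSC the log2 fold change of Pgam1 was −0.19 (SE 0.11, adjusted p = 0.667), and the 2 stages did not overlap. Even in PM-LMSCs, Gapdh had the lowest FPKM of the steps from Tpi1 to Pkm when the isozymes of a step are summed. The PM-LMSC mean of Pgk1 was 333 FPKM and that of Gapdh 46.1 FPKM. Fragments of Gapdh can be assigned to near-identical copies, as described below, and their part in this low level was not tested.

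Enolase, the step before Pkm, has a ubiquitous form, Eno1, and a form best known from neurons, Eno2. Eno1 reached 98.9 and 105 FPKM in A-LMSCs, 70.9 and 88.2 in PM-LMSCs and 63.2 and 84.9 in M-LMSCs, with A-LMSCs above the rest (M-LMSC against A-LMSC log2 fold change −0.47, SE 0.18, adjusted p = 0.296). Eno2 was at 4.13 and 4.37, then 1.65 and 1.77, then 3.83 and 4.57 FPKM. PM-LMSCs were below all others, at 40.2% of the A-LMSC mean, and A-LMSCs and M-LMSCs overlapped. The log2 fold change was −0.95 (SE 0.12, adjusted p = 0.166) for PM-LMSC against A-LMSC and 0.94 (SE 0.12, adjusted p = 0.103) for M-LMSC against PM-LMSC. Eno2 ranked 16th among the falls of all genes in the former. With the replicate block both passed (SE 0.11 each, adjusted p = 0.0369 and 0.0397), and the PM-LMSC against A-LMSC difference also passed without M-LMSC replicate 1 or without M-LMSC replicate 2 (adjusted p = 0.0497 and 0.0494). With the GC and length correction beside the block neither passed, where 0.0487% of all genes were called higher and 0.00975% lower in each of the 2 comparisons.

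Gapdh and Eno2 are neighbours on chromosome 6 of GRCm38, both on the minus strand, at chr6:125161715-125166467 and chr6:124760053-124769673, their starts 402 kb apart. Tpi1, another member, lies between them at chr6:124810586-124814296. In PM-LMSCs Gapdh was the highest of the stages, Eno2 the lowest, and Tpi1 neither, so the 3 neighbours had 3 different orders. Of the 32 tested genes that start within 1 Mb of the Gapdh start, PM-LMSCs were highest in 5 (15.6%; 4.26% of all genes) and lowest in 7 (21.9%; 6.05% of all genes). The former count includes Gapdh, on which the window is centred, and the latter Eno2. Both were known to have these orders, which raises the shares. The former count also includes Iffo1, which shares 68 exon bases with Gapdh on the opposite strand, so reads of the 2 genes cannot be told apart there. Outside the pathway, C1s1, a serine protease of the classical complement cascade, was at 3.87 and 3.25, then 16.1 and 18.6, then 8.94 and 10.2 FPKM. Pianp, a neuronal membrane protein, was at 5.88 and 5.95, then 0.128 and 0.119, then 4.58 and 6.51 FPKM. Thus Pianp was near 0 in PM-LMSCs alone and C1s1 was highest there.

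Both passed the test for PM-LMSC against A-LMSC, C1s1 with a log2 fold change of 2.01 (SE 0.14, adjusted p = 0.0105) and Pianp with −2.62 (SE 0.16, adjusted p = 0.00715). Together with Gapdh they were 3 of the 4 genes called in that comparison over the whole table, and Gapdh and Pianp were 2 of the 3 called for M-LMSC against PM-LMSC. These proportions belong to the fit without the block: with it, 4 of 30 and 3 of 43 called genes lay in the window, Eno2 being the further one in each. Without either PM-LMSC library in turn, Gapdh alone was called against A-LMSCs, and without an M-LMSC library 26 to 28 genes were. The other 28 tested genes of the window had PM-LMSC against A-LMSC log2 fold changes between −0.66 and 0.25. The order of Gapdh was not shared within the pathway: apart from Gapdh no member was highest in both PM-LMSC libraries, and over the 14 other tested glycolytic enzymes and lactate dehydrogenases the median log2 fold change of PM-LMSC against A-LMSC was −0.20, with values from −0.36 to 0.47. Eno2 was 1 of 7 members lowest in PM-LMSCs, with Slc2a1, Pdk1, Egln3, Bnip3, P4ha1 and P4ha2, and none of these 6 others lies on chromosome 6.

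**Figure D4:**
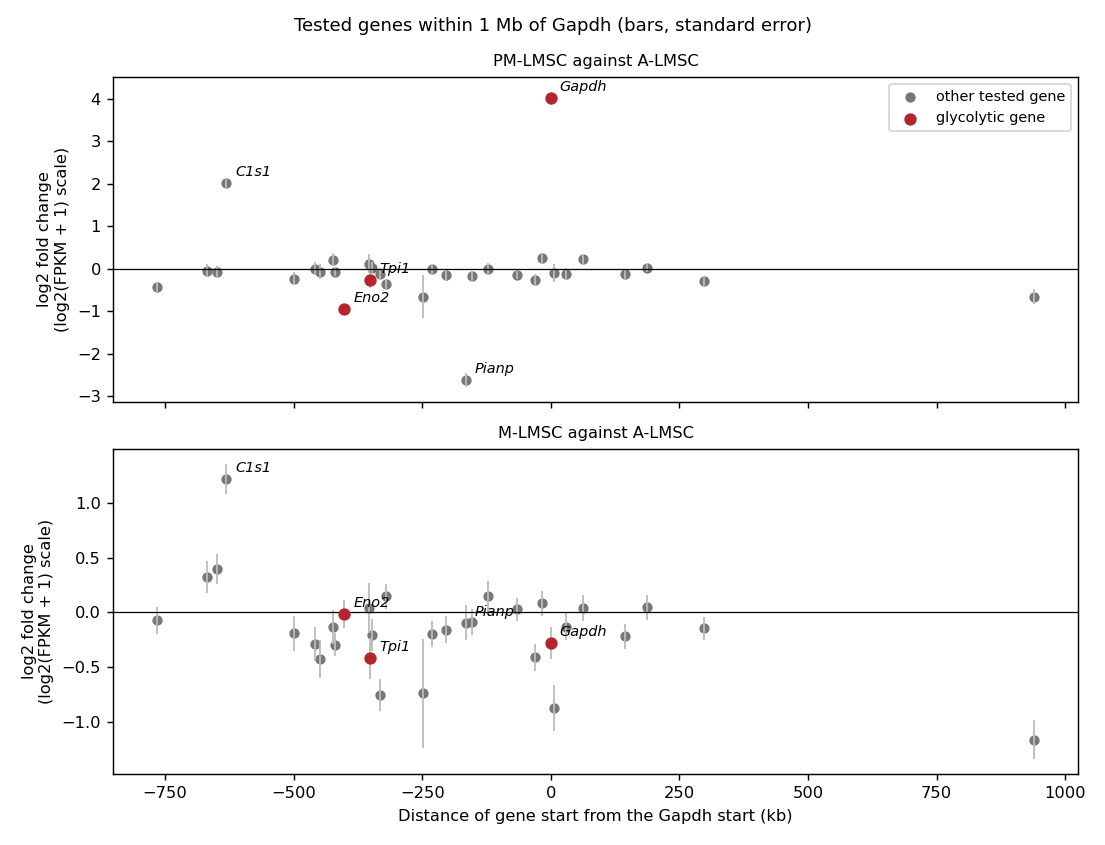
Log2 fold change on the log2(FPKM + 1) scale (vertical, with standard error bars) of the 32 tested genes that start within 1 Mb of Gapdh, by distance from its start in kb (horizontal), with members in red. In PM-LMSC against A-LMSC (upper panel) Gapdh at 4.01, C1s1 at 2.01, Pianp at −2.62 and Eno2 at −0.95 stand apart, while Tpi1 and the others lie between −0.66 and 0.25; the lower panel, M-LMSC against A-LMSC, has its own scale.

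Several of these enzymes have near-identical copies, to which fragments of the gene can be assigned. Among the members 13 have another annotated gene that is 95% identical or more over 200 bases or more, and 8 of these have a copy listed in the table. Gapdh has 127 such copies, 10 of them listed. Gapdh and its listed copies together held 11.0 and 12.1 fragments per 1000000 in A-LMSCs, 175 and 214 in PM-LMSCs and 8.37 and 9.28 in M-LMSCs. The listed copies held at most 4.87 fragments per 1000000 in any library. That was 27.0% to 36.6% of the sum in the A-LMSC and M-LMSC libraries and at most 2.77% in those of PM-LMSCs. With the copies added, the PM-LMSC mean was 1692% of the A-LMSC mean, where that of Gapdh alone was 2416%. Fragments assigned to the copies that are not listed could not enter the sum. How fragments matching several places were counted is not given in the sources used here, and its part in the low level of Gapdh was not tested.

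Eno1 has 5379 exon bases, of which 1736 in a row match Eno1b at 99.5% identity, and this copy held 70.9% to 73.9% of the fragments assigned to the pair. Eno1b alone reached 707 and 796 FPKM in A-LMSCs, 574 and 693 in PM-LMSCs and 466 and 592 in M-LMSCs. Its order was that of Eno1, and the pair summed to 82.6% of the A-LMSC value in PM-LMSCs and 71.0% in M-LMSCs. Adding the copies changed no call among the members. In addition, 14 members share exon bases with an overlapping gene, 13 of them with a gene on the opposite strand, such as Gapdh with Iffo1. Whether counting used the strand is not given in the sources used here, so reads of such pairs cannot be told apart.

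At the lactate step the abundant forms were highest in A-LMSCs and the minor forms were not. Ldha, the form that favours lactate, reached 631 and 734 FPKM in A-LMSCs, 521 and 574 in PM-LMSCs and 481 and 533 in M-LMSCs. Ldhb, which favours the return to pyruvate, was at 27.5 and 23.2, then 29.3 and 42.8, then 36.4 and 56.4 FPKM. Ldha was highest and Ldhb lowest in both A-LMSC libraries, and the later stages overlapped in both genes. Neither passed the test for M-LMSC against A-LMSC (log2 fold changes −0.43, SE 0.14, adjusted p = 0.241, and 0.82, SE 0.25, adjusted p = 0.229), with or without the replicate block, nor did Ldhb for PM-LMSC against A-LMSC (0.47, SE 0.25, adjusted p = 0.84). For Ldhb the PM-LMSC difference was 0.74 without PM-LMSC replicate 1 and 0.21 without PM-LMSC replicate 2, and the M-LMSC difference was 0.51 without M-LMSC replicate 2. Ldhb made up 4.18% and 3.07% of lactate dehydrogenase FPKM in A-LMSCs, 5.33% and 6.94% in PM-LMSCs and 7.04% and 9.57% in M-LMSCs, and no library of A-LMSCs overlapped with the others.

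Lactate leaves through monocarboxylate transporters. Slc16a3 (MCT4), the exporter of glycolytic cells, reached 49.4 and 56.3 FPKM in A-LMSCs, 31.1 and 36.2 in PM-LMSCs and 23.5 and 33.6 in M-LMSCs. A-LMSCs were above the rest and the later stages overlapped. Against A-LMSCs the log2 fold change was −0.64 (SE 0.18, adjusted p = 0.525) in PM-LMSCs and −0.88 (SE 0.18, adjusted p = 0.118) in M-LMSCs. The latter passed with the replicate block (SE 0.11, adjusted p = 0.0179), with the GC and length correction beside it (−0.77, adjusted p = 0.0346), and without M-LMSC replicate 2 (−1.13, adjusted p = 0.0484). For M-LMSC against PM-LMSC it was −0.25 (SE 0.18, adjusted p = 0.73), a value near 0 without M-LMSC replicate 1 and of −0.14 without PM-LMSC replicate 2. The more general transporter Slc16a1 (MCT1) overlapped between the stages, at 5.49 to 9.65 FPKM. Its share of the pair was 10.0% and 12.8% in A-LMSCs, 18.2% and 16.4% in PM-LMSCs and 23.0% and 22.3% in M-LMSCs, so the 3 stages were apart.

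**Figure D5:**
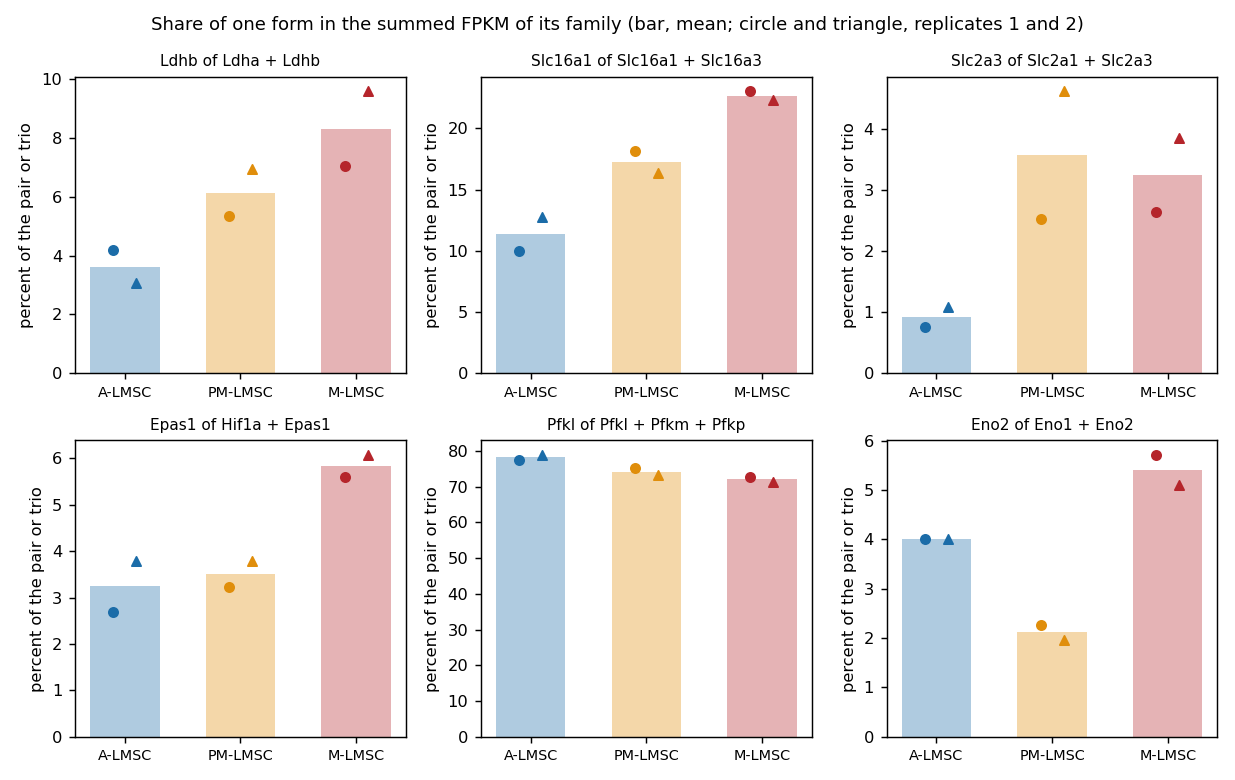
Percent that a form makes up of the summed FPKM of its pair or trio (vertical) in the 3 stages (horizontal), with bars for the mean of 2 libraries and circles and triangles for replicates 1 and 2. The shares of Ldhb and Slc16a1 are lowest in A-LMSCs (3.07% to 4.18% and 10.0% to 12.8%), that of Pfkl is highest there (77.5% and 79.0%), and that of Eno2 is lowest in PM-LMSCs (1.96% and 2.27%).

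No regulator of the pathway passed the test. Pdk1, a kinase that blocks pyruvate dehydrogenase, was at 4.19 and 4.26, then 3.17 and 2.60, then 4.02 and 3.91 FPKM. PM-LMSCs were the lowest and A-LMSCs the highest, and neither difference of PM-LMSCs passed the test (log2 fold change −0.43, SE 0.12, adjusted p = 0.521 against A-LMSCs). Pfkfb3 and Pfkfb4, which set the level of the phosphofructokinase activator fructose 2,6-bisphosphate, were at 3.16 to 4.18 FPKM and 1.54 to 2.24 FPKM. Pfkfb3 overlapped between the stages and Pfkfb4 was highest in A-LMSCs.

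Of the HIF subunits, Hif1a ranged from 25.7 to 40.3 FPKM and its stages overlapped. In each stage replicate 1 was the higher. Epas1 (HIF-2α) reached 0.813 and 1.01 FPKM in A-LMSCs, 1.22 and 1.04 in PM-LMSCs and 2.39 and 1.84 in M-LMSCs. M-LMSCs were above all others and A-LMSCs below all others. The M-LMSC against A-LMSC log2 fold change was 0.70 (SE 0.14, adjusted p = 0.114) and passed with the replicate block (SE 0.13, adjusted p = 0.0377); against PM-LMSCs it was 0.54 (SE 0.14, adjusted p = 0.339). Epas1 is also abundant in lung endothelium. The endothelial markers did not move together. Kdr was at 1.11 to 1.17 FPKM in A-LMSCs and 2.23 to 2.31 in M-LMSCs. Cdh5 was lower in M-LMSCs (0.265 and 0.229 FPKM in A-LMSCs, 0.227 and 0.0605 in M-LMSCs). Tek overlapped (0.133 and 0.0529, then 0.112 and 0.0957 FPKM), and Pecam1 was at 0.0337 FPKM or less. The part of such cells in the level of Epas1 was not tested.

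The prolyl hydroxylases mark HIF for destruction and are themselves HIF targets. Egln1 (PHD2), the main form, reached 34.5 and 32.2 FPKM in A-LMSCs, 26.3 and 23.0 in PM-LMSCs and 29.1 and 25.8 in M-LMSCs. Egln3 (PHD3) was at 19.1 and 18.5, then 11.4 and 11.3, then 13.1 and 12.5 FPKM. In both genes A-LMSCs were above the rest, and Egln3 did not overlap between any stages, with PM-LMSCs the lowest at 60.2% of the A-LMSC mean. The Egln3 log2 fold change was −0.68 (SE 0.10, adjusted p = 0.236) in PM-LMSCs and −0.52 (SE 0.10, adjusted p = 0.114) in M-LMSCs against A-LMSCs. The M-LMSC difference passed with the replicate block (adjusted p = 0.0384) and with the GC and length correction beside it (adjusted p = 0.043); the PM-LMSC difference did not (block adjusted p = 0.0537).

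Among the further hypoxia-responsive genes, Bnip3, which directs mitochondria to autophagy, reached 39.2 and 40.4 FPKM in A-LMSCs, 26.4 and 19.4 in PM-LMSCs and 32.9 and 29.9 in M-LMSCs. The stages did not overlap, and PM-LMSCs were the lowest. Its log2 fold change was −0.79 (SE 0.16, adjusted p = 0.324) for PM-LMSC against A-LMSC and 0.45 (SE 0.16, adjusted p = 0.478) for M-LMSC against PM-LMSC, the latter 0.24 without PM-LMSC replicate 2. Its relative Bnip3l was at 10.4 and 10.5, then 11.3 and 9.32, then 12.6 and 12.8 FPKM, highest in M-LMSCs.

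The prolyl 4-hydroxylase subunits, which modify collagen in the endoplasmic reticulum, differed from each other. P4ha1 was at 73.4 and 70.2, then 65.3 and 67.2, then 82.2 and 78.3 FPKM, and P4ha2 at 31.4 and 28.4, then 18.1 and 22.7, then 22.7 and 25.1 FPKM. P4ha1 was highest in M-LMSCs and P4ha2 in A-LMSCs, and both were lowest in PM-LMSCs, by a narrow margin in P4ha2. P4ha2 made up 30.0% and 28.8% of the pair in A-LMSCs and 21.7% to 25.2% in the other 4 libraries. No difference of either gene passed the test.

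Adm encodes adrenomedullin, a vasodilator peptide. Its level was 84.3 and 82.2 FPKM in A-LMSCs, 58.9 and 60.1 in PM-LMSCs and 66.6 and 41.7 in M-LMSCs, with A-LMSCs above the rest. The M-LMSC against A-LMSC log2 fold change was −0.65 (SE 0.21, adjusted p = 0.241), and it rested on which M-LMSC library was used: without M-LMSC replicate 1 it was −0.98 and passed (adjusted p = 0.0233), and without M-LMSC replicate 2 it was −0.32 and did not. Ndrg1, a stress-induced gene, overlapped between stages and ranged from 4.13 to 13.4 FPKM within M-LMSCs alone. Ankrd37, at 0.995 and 1.17, then 0.748 and 0.696, then 0.878 and 0.792 FPKM, and Car9, the membrane carbonic anhydrase, at 0.152 to 0.324 FPKM in all libraries, were too low to be tested.

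A further 91 genes of the HIF pathway, glucose and pyruvate handling, the pentose phosphate and glycogen routes and hypoxia response were listed, 69 of them tested, and 0 were called in any of the 3 comparisons in limma without the block. Their median log2 fold changes were −0.03 in PM-LMSCs and 0.08 in M-LMSCs against A-LMSCs, and 0.09 for M-LMSC against PM-LMSC. With the replicate block 3 passed, all for M-LMSC against A-LMSC, 1 of them higher and 2 lower, where 2.28% and 1.64% of all genes were; with the GC and length correction beside the block 0 passed. Plod2, a lysyl hydroxylase of collagen, reached 40.8 and 36.3 FPKM in A-LMSCs, 50.9 and 43.1 in PM-LMSCs and 58.5 and 61.3 in M-LMSCs (log2 fold change 0.62, block adjusted p = 0.0343). Eno3, the muscle enolase, was at 93.0 and 94.1, then 69.9 and 83.0, then 57.0 and 41.1 FPKM (−0.94, block adjusted p = 0.0339), and Eno1b was lower as well (−0.51, block adjusted p = 0.0497). All 3 were without overlap between A-LMSCs and M-LMSCs.

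The pathway genes beyond the members were split between stages. Both A-LMSC libraries were highest in 14 of the 69 (20.3%; 10.7% of all genes), among them Mif, Bsg, Ak4, Fam162a and Higd1a, and both M-LMSC libraries in 16 (23.2%; 11.8% of all genes), among them Arnt, Lox, Loxl2, Plod2 and G6pdx. Lox and Loxl2, which cross-link collagen, were at 395 to 633 FPKM and 69.2 to 102 FPKM. The differences at the ends of each comparison were those of Pdk4, Anxa1 and Rpe (log2 fold change 0.54, 0.41 and 0.40) and of Slc2a6, Ak4 and Stc2 (−0.49, −0.48 and −0.45) in PM-LMSC against A-LMSC, Plod2, Bhlhe40 and Loxl2 (0.62, 0.49 and 0.49) and Eno3, Eno1b and Stc2 (−0.94, −0.51 and −0.42) in M-LMSC against A-LMSC, and Pnrc1, Cxcl12 and Loxl2 (0.70, 0.49 and 0.46) and Eno3, Angptl4 and Pgls (−0.64, −0.40 and −0.34) in M-LMSC against PM-LMSC.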

How the data were processed

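RNA-seq of LMSC cultures from MMTV-PyMT mice at 3 stages was used, with 2 libraries per stage; the further libraries that the methods mention are not analysed here. The authors deposited FPKM values for 34745 genes, 1 column per library, and 0 columns of sample values were left unused. The submitters' processing notes name TopHat2 2.0.9 and mm10; the counter, annotation, strandedness and treatment of fragments matching several places are not given in the sources used here. The columns were matched to libraries through the labels. FPKM keeps no counts, so no count model was used, and the number of libraries and their depth, estimated at 15000000 to 21100000 fragments, limit the precision of genes near 1 FPKM.

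The 10279 genes that averaged 1 FPKM or more across the 6 libraries were transformed as log2(FPKM + 1) and fitted with limma 3.58.1 in R 4.3.3 (lmFit, eBayes with trend), with a mean per stage. Fold changes are on that scale, which understates those of low genes. P-values were adjusted by Benjamini-Hochberg over all genes tested, with a threshold of 0.05, and the scripts were tested on simulated data. The alternatives were an offset of 0.1, no filter, quantile normalization, centring on the median, the libraries of the stages compared alone, a replicate block, a fold change minimum, each library left out in turn, copies added in, and, chosen after seeing the data, the block with a lowess correction for GC content and gene length (10257 genes). The labels number the libraries 1 and 2 in each stage without saying what a number stands for; deviations of same-numbered libraries from their stage means correlated at 0.238, 0.307 and 0.491 in the 3 pairs of stages, so the blocked value is given where it changes a call.

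Members, lists of other pathway genes and markers were chosen with earlier results of these data known. Fold changes and p are given for members called in any comparison with or without the block, for the 3 largest changes in each direction per comparison and for the called genes within 1 Mb of Gapdh, the others there being summarised; of the other pathway genes, those called and the 3 largest changes in each direction are named; further members given them were chosen after their values were seen. Coordinates are those of GENCODE M21 (GRCm38), promoters those of RefSeq (GRCm38.p6), and copies were found with blastn 2.17.0 (at least 95% identity over 200 bases).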

Additional observations from a re-analysis of the deposited data

Results flagged for a closer look

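Gapdh differed between the later stages, being higher than A-LMSCs in both PM-LMSC libraries and lower in both M-LMSC libraries, and this difference was itself tested (M-LMSC against PM-LMSC log2 fold change −4.29, limma adjusted p = 0.000183). P4ha1 was lower than A-LMSCs in both PM-LMSC libraries and higher in both M-LMSC libraries, and the test of this difference did not pass (M-LMSC against PM-LMSC log2 fold change 0.27, SE 0.10, limma adjusted p = 0.51). With 2 libraries per stage, a library far from its group could not be told from the other.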

How the results depend on the processing

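Of the fold changes of the named members under the alternatives, 252 kept their direction and their side of the threshold, 13 kept their direction and passed where the reported fit did not, and 1 turned: Slc16a3 in M-LMSC against PM-LMSC was 0.0022 (adjusted p = 0.999) without M-LMSC replicate 1, which decides its sign, and −0.49 without M-LMSC replicate 2. Gapdh was called in both of its comparisons under every alternative, with log2 fold changes from 3.66 to 4.53 against A-LMSCs and from −4.95 to −3.93 for M-LMSC against PM-LMSC.

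The counts of calls depended on the fit. With the replicate block the members called went from 1 to 2 for PM-LMSC against A-LMSC, from 0 to 5 for M-LMSC against A-LMSC and from 1 to 2 for M-LMSC against PM-LMSC, and all genes called from 4 to 30, from 7 to 403 and from 3 to 43; among the members the block changed no other call than those given. With the GC and length correction beside the block, 2 members were called for M-LMSC against A-LMSC, and all genes called were 305 there and 6 for M-LMSC against PM-LMSC. Without the filter on low values 1 gene was called for PM-LMSC against A-LMSC and 3 for M-LMSC against A-LMSC, and with only the stages compared in the fit 21 and 1. When libraries were left out singly, the members called ranged from 1 to 2, from 0 to 1 and from 1 to 1 in the 3 comparisons, and all genes called from 1 to 28, from 1 to 90 and from 2 to 25, the highest counts being those without an M-LMSC library. The cause was not tested. With 2 libraries per stage, leaving out 1 assumes that the lone library varies like the other stages.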
